A study of Mus musculus with 13 samples.

Results

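The genes described are 10 of the 24421 gene rows of the count table: the transcription factors of epithelial-mesenchymal transition (EMT) Snai1, Snai2, Twist1, Zeb1, Zeb2 and Prrx1, and the mesenchymal markers Vim, Fn1, Cdh2 and S100a4. They were picked out by gene symbol, a rule that uses no measured value, and all 10 were found. Their levels were compared between cancer-free mammary glands and 4 groups of mammary tumors, tumor by tumor.

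All 13 libraries came from female mice of the FVB/N-TgN strain 202Mul/J, which carries MMTV-HER2/neu, a rat HER2/Neu transgene driven by the mammary tumor virus repeat, so that the oncogene acts mainly in mammary epithelium. The mammary glands (n = 2) and the primary untreated tumors (n = 3) came from untreated mice. Primary STV tumors (n = 3) came from mice given stavudine (STV), a nucleoside inhibitor of reverse transcriptase, at 1 mg/mL in drinking water. Recurrent DMAG tumors (n = 3) had grown back after 17-DMAG, an inhibitor of the chaperone HSP90, injected at 20 mg/kg 3 times per week, and recurrent DMAG+STV tumors (n = 2) had grown back after 17-DMAG in mice given STV. The glands carried the transgene too. STV began as early as 2 months of age or only once tumors had appeared. The paper describes the primary STV tumors as having arisen in mice already on stavudine. For the recurrent DMAG+STV tumors, the labels do not say which start applied to each mouse. The labels also give no age at collection and no extraction or sequencing batch. Nor do they state that the samples of a group came from separate mice, so p-values measure the spread between these samples only.

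In EMT, epithelial cells lose cell-cell junctions and gain motility. The SNAIL, ZEB and TWIST factors bind E-box sequences and repress Cdh1, the gene for E-cadherin, while vimentin, fibronectin and N-cadherin become abundant. The same genes are active in cells that are mesenchymal to begin with: fibroblasts make fibronectin and vimentin and express Prrx1 and Twist1, Zeb1 and Zeb2 are expressed in endothelium and Zeb2 in macrophages, and S100a4 is found in fibroblasts and leukocytes. A tumor or a gland is a mixture of all of these, and in bulk RNA a change in cell number and a change in RNA per cell cannot be told apart.

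The 13 libraries held 39921388 to 56887708 counts. Levels are given as CPM (counts relative to the library total) scaled by TMM factors, which correct the library totals for composition. The factor was 0.493 in gland 2 and close to 1.0 in the tumors (0.999 to 1.09). In gland 2, 8 milk protein genes summed to 764677 CPM on the scaled total, so that sum is not their share of the counts. Gland 1 held 174 CPM of a T and B lymphocyte list, against 5.92 CPM in gland 2 and 1.83 to 4.68 CPM in the tumors, so the 2 glands differed strongly in tissue makeup. Recurrent DMAG 1 stood apart from the other tumors: it had the highest value of all 11 tumors for 24.6% of 16870 tested genes and the lowest for 24.6%. Results are therefore also given without it.

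Promoter sequence was available from RefSeq (GRCm38.p6) for 6 of the 10 genes, namely Snai1, Twist1, Zeb2, Prrx1, Vim and S100a4, and the 250 bases before the start were searched on both strands. The E-box CACCTG, bound by SNAIL and ZEB factors, was found in 17.2% of 32851 promoters and, among the 6, in Snai1, 126 bases before the start. Snai1 was also the only one of the 6 with the looser E-box CANNTG, which includes CACCTG and was present in 66.2% of promoters. The letters TATAAA of a TATA box were in 12.4% of promoters and in Twist1, Vim and S100a4. The AP-1 letters TGANTCA were in 6.75% of promoters and in Zeb2, and the GC box GGGCGG was in 32.7% and in Twist1 and Zeb2. The promoters of Snai1 (chr2:167537945-167538194, plus strand, the E-box in capitals) and Vim (chr2:13574061-13574310, plus strand, the TATA letters in capitals) are shown because they hold the E-box that the factors themselves recognize and the promoter of the best known marker:
Snai1: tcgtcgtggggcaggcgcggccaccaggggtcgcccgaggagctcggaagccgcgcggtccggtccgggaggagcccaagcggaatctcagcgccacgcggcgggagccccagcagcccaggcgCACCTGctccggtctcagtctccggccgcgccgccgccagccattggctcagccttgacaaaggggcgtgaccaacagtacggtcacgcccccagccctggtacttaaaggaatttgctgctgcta
Vim: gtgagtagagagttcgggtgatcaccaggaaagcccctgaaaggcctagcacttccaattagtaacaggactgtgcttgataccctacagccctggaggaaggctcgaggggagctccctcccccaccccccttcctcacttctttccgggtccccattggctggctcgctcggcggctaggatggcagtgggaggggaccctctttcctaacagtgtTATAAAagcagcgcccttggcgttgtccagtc
A match describes the sequence and does not show that a factor binds there.

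The 10 genes lie on 6 chromosomes of GRCm38 (RefSeq GRCm38.p6 positions, with exon lengths from GENCODE vM21). Snai1 is at chr2:167538195-167542814, Snai2 at chr16:14705852-14709395, Twist1 at chr12:33957671-33959831, Zeb1 at chr18:5591327-5775468, Zeb2 at chr2:44983512-45117442 and Prrx1 at chr1:163245119-163315145. Vim is at chr2:13574311-13582826, Fn1 at chr1:71585473-71653280, Cdh2 at chr18:16588877-16809246 and S100a4 at chr3:90603770-90606045. Zeb2 overlaps the antisense gene Zeb2os and Mir5129, and Zeb1 overlaps Gm10125. The libraries were made with a stranded kit, but the strand setting of the counting is not given in the sources used here, so reads of Zeb1 and Zeb2 cannot be fully separated from those of their neighbors.

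Per kilobase of annotated exon, which allows genes to be compared, the markers Vim and Fn1 were far more abundant than the other 8 genes. Over the 11 tumors, the median was 30.8 CPM per kb (range 12.8 to 107) for Vim and 21.8 (4.56 to 145) for Fn1. It was 2.36 (0.678 to 10.1) for S100a4, 2.17 (1.93 to 8.80) for Zeb2, 1.88 (0.914 to 10.1) for Prrx1 and 1.77 (1.00 to 5.07) for Zeb1. The lowest medians were 0.846 (0.272 to 6.97) for Snai1, 0.501 (0.108 to 2.34) for Cdh2, 0.459 (0.199 to 4.02) for Snai2 and 0.339 (0.107 to 1.98) for Twist1. Fn1 exceeded S100a4 in 11 of 11 tumors and Vim exceeded Fn1 in 10, whereas S100a4, Zeb2, Prrx1 and Zeb1 changed places between tumors, as did Snai1, Cdh2, Snai2 and Twist1. For the least abundant gene, Twist1, these levels rested on 8 to 139 counts per tumor. Low counts were mostly even (73.7% of those from 1 to 20), and where both reads of a pair were counted, the number of fragments behind such a value is smaller than the count.

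Snai1 encodes the zinc finger repressor SNAIL. Its level was 1.68 and 1.64 CPM in the glands, 1.55, 0.938 and 0.441 CPM in primary untreated tumors 1 to 3, and 0.829, 0.479 and 1.37 CPM in primary STV tumors. It was 11.3, 1.38 and 1.18 CPM in recurrent DMAG tumors and 2.07 and 4.81 CPM in recurrent DMAG+STV tumors. Both recurrent DMAG+STV tumors were above all 3 primary STV tumors, while recurrent DMAG 2 and 3 fell between the lowest and highest untreated primary tumor and recurrent DMAG 1 was 2.35-fold above the next highest tumor.

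Snai2 encodes SLUG, the paralog of SNAIL, which is normally expressed in basal mammary cells. It was at 7.05 and 7.24 CPM in the glands. The tumors had 1.75, 1.18 and 0.722 CPM (primary untreated), 1.06, 0.870 and 0.928 CPM (primary STV), 3.47, 0.402 and 0.902 CPM (recurrent DMAG) and 0.821 and 8.13 CPM (recurrent DMAG+STV). Of the 11 tumors, 10 were below both glands, and recurrent DMAG+STV 2 was above them.

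Twist1, a basic helix-loop-helix factor, was at 3.43 and 1.93 CPM in the glands. It was at 0.677, 0.245 and 0.281 CPM in primary untreated, 0.553, 0.174 and 0.506 CPM in primary STV, 3.22, 0.491 and 0.797 CPM in recurrent DMAG, and 0.626 and 1.14 CPM in recurrent DMAG+STV tumors. All tumors but recurrent DMAG 1 were below both glands, and both recurrent DMAG+STV tumors were above all 3 primary STV tumors.

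Zeb1 and Zeb2 are zinc finger homeobox repressors held down in epithelium by the miR-200 family. Zeb1 was at 38.2 and 22.7 CPM in the glands, 14.9, 14.4 and 10.3 CPM in primary untreated, 10.9, 6.35 and 9.93 CPM in primary STV, 29.4, 5.83 and 9.76 CPM in recurrent DMAG, and 7.64 and 17.1 CPM in recurrent DMAG+STV tumors. Zeb2 was at 78.7 and 33.4 CPM in the glands, 25.6, 19.6 and 19.8 CPM in primary untreated, 19.7, 18.5 and 18.8 CPM in primary STV, 80.3, 17.6 and 22.1 CPM in recurrent DMAG, and 30.7 and 35.5 CPM in recurrent DMAG+STV tumors. For Zeb1 all tumors but recurrent DMAG 1 were below both glands, and the recurrent and primary ranges overlapped in both arms. For Zeb2 the 3 primary STV tumors were the most alike of any group, and both recurrent DMAG+STV tumors were above them.

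Prrx1, a homeobox factor of mesenchymal progenitors, was at 40.1 and 17.2 CPM in the glands. It was at 15.3, 9.17 and 6.11 CPM in primary untreated, 9.32, 4.53 and 5.67 CPM in primary STV, 50.2, 4.71 and 12.0 CPM in recurrent DMAG, and 13.2 and 20.3 CPM in recurrent DMAG+STV tumors. Recurrent DMAG 1 exceeded both glands and recurrent DMAG 2 was among the lowest tumors, so that group spanned 10.6-fold.

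**Figure D1:**
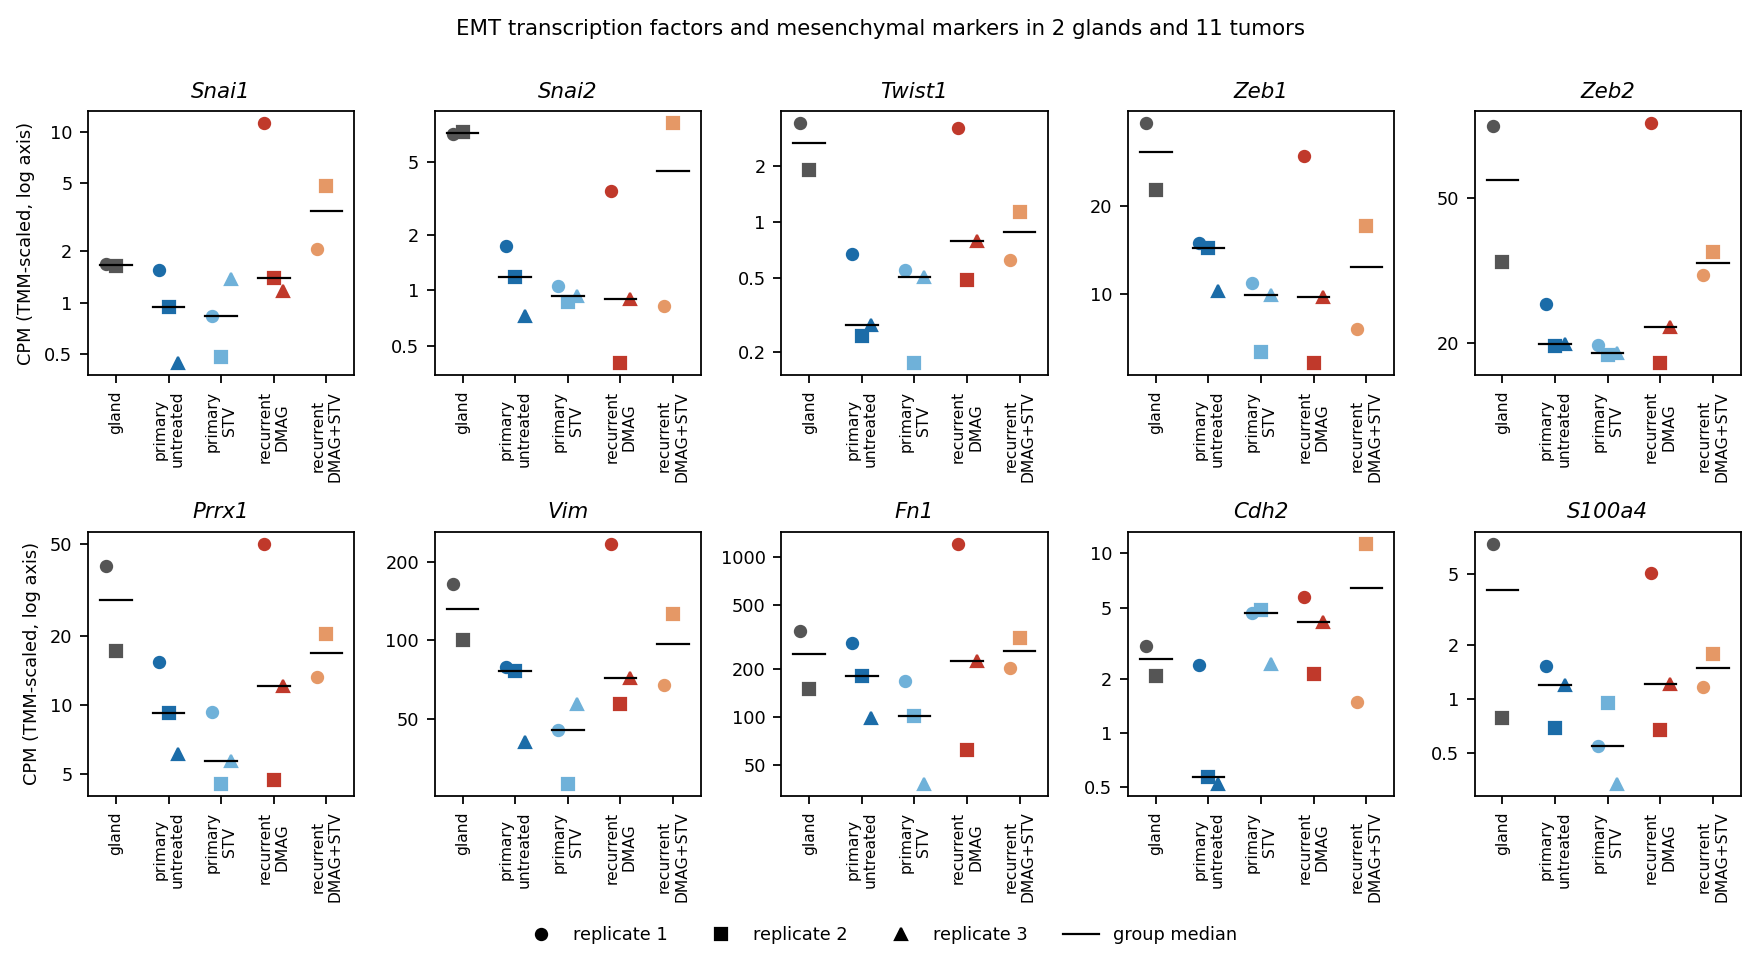
Level of each of the 10 genes in CPM (log axis) in the 2 mammary glands and the 11 tumors, by group, with a symbol per replicate number and a line at the group median. Recurrent DMAG replicate 1 (red circle) is the highest tumor for 8 of the 10 genes, and recurrent DMAG+STV replicate 2 (orange square) is the highest for Snai2 and Cdh2.

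Vim encodes vimentin, the intermediate filament of mesenchymal cells. It was at 165 and 100.2 CPM in the glands, 78.8, 76.3 and 40.6 CPM in primary untreated, 45.3, 28.0 and 56.7 CPM in primary STV, 235, 56.7 and 71.9 CPM in recurrent DMAG, and 67.5 and 127 CPM in recurrent DMAG+STV tumors. Primary tumors were all below both glands, as were recurrent DMAG 2 and 3 and recurrent DMAG+STV 1.

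Fn1 encodes fibronectin, a protein of the extracellular matrix. It was at 342 and 150.0 CPM in the glands, 287, 181 and 98.4 CPM in primary untreated, 168, 101 and 37.9 CPM in primary STV, 1208, 61.8 and 224 CPM in recurrent DMAG, and 203 and 311 CPM in recurrent DMAG+STV tumors. Among the 10 genes Fn1 varied most, by 31.8-fold between the lowest and highest tumor, and recurrent DMAG 1 was 3.89-fold above the next.

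Cdh2 encodes N-cadherin. It was at 3.07 and 2.07 CPM in the glands, 2.41, 0.571 and 0.521 CPM in primary untreated, 4.65, 4.85 and 2.43 CPM in primary STV, 5.72, 2.12 and 4.18 CPM in recurrent DMAG, and 1.49 and 11.3 CPM in recurrent DMAG+STV tumors. Cdh2 was thus the gene for which all 3 primary STV tumors were above the 3 primary untreated tumors, narrowly so, since the lowest STV value was 2.43 and the highest untreated value 2.41 CPM. The recurrent DMAG+STV tumors were the highest and among the lowest 3 of the 11.

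S100a4, a calcium-binding protein also called fibroblast-specific protein, was at 7.33 and 0.785 CPM in the glands. It was at 1.53, 0.693 and 1.20 CPM in primary untreated, 0.553, 0.957 and 0.337 CPM in primary STV, 5.05, 0.670 and 1.22 CPM in recurrent DMAG, and 1.17 and 1.79 CPM in recurrent DMAG+STV tumors. Most tumors lay between the 2 glands, and both recurrent DMAG+STV tumors were above all 3 primary STV tumors.

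The highest tumor was nearly always the same. Recurrent DMAG 1 ranked first for 8 of the 10 genes (24.6% of all genes) and second, behind recurrent DMAG+STV 2, for Snai2 and Cdh2. Against the median of the other 10 tumors its level was 8.88-fold for Snai1, 6.92-fold for Fn1, 6.08-fold for Twist1, 5.43-fold for Prrx1, 4.74-fold for S100a4 and 4.06-fold for Zeb2. For Snai2, Vim, Zeb1 and Cdh2 it was 3.80-, 3.79-, 2.91- and 2.37-fold. Recurrent DMAG+STV 2 ranked in the top 3 for all 10 genes, and it was the highest tumor for 2 of them against 14.0% of all genes. Its share of top 3 ranks over all genes was not computed. Recurrent DMAG 2, of the same treatment group as the highest tumor, was the lowest of the 11 for Snai2, Zeb1 and Zeb2 (5.65% of all genes), so for Zeb1 and Zeb2 the 3 recurrent DMAG tumors held both ends of the range. Primary STV 2 was also the lowest for 3 of the 10 (12.4% of all genes).

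The first comparison asked whether tumors differed from cancer-free glands, with the 4 tumor groups weighted equally. With edgeR's quasi-likelihood test, 0 of the 10 genes passed an adjusted p of 0.05, against 10.4% of 17135 genes in either direction and 8.81% lower in tumors. At an unadjusted p under 0.05, 5 were lower in tumors (19.0% of all genes) and none was higher. The log2 fold change (tumor minus gland) was -1.97 ± 0.61 (SE; adjusted p = 0.0648) for Twist1, -2.07 ± 0.68 (adjusted p = 0.0764) for Snai2, -1.32 ± 0.46 (adjusted p = 0.0903) for Zeb1, -1.05 ± 0.44 (adjusted p = 0.143) for Zeb2 and -1.71 ± 0.72 (adjusted p = 0.144) for S100a4. Prrx1 and Vim had folds of -1.19 (95% interval -2.57 to 0.19) and -0.80 (-1.84 to 0.24). Fn1, Snai1 and Cdh2 had folds of -0.14 (-1.99 to 1.70), 0.22 (-1.59 to 2.02) and 0.36 (-1.30 to 2.01). Folds were above 0 for 2 of the 10 (48.4% of all genes), and their median was -1.12, against -0.02 over all genes tested. For none of the 10 were the glands and the tumors fully separate, whereas 7.37% of all genes were lower and 4.14% higher in every tumor than in either gland.

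This outcome turned on recurrent DMAG 1. Without that tumor, the same test called 6 of the 10 genes, all lower in tumors, against a background of 18.2% called and 13.5% lower among 17000 genes. The calls were Zeb2 (-1.30 ± 0.24, adjusted p = 0.00730), Zeb1 (-1.56 ± 0.31, adjusted p = 0.0111), Twist1 (-2.28 ± 0.47, adjusted p = 0.0126), Snai2 (-2.40 ± 0.56, adjusted p = 0.0208), Prrx1 (-1.55 ± 0.42, adjusted p = 0.0350) and S100a4 (-2.03 ± 0.60, adjusted p = 0.0451). Vim stayed above the threshold at -1.03 (adjusted p = 0.0522). With all tumors in, DESeq2 and limma voom each called Twist1 and Snai2, with adjusted p of 0.0324 and 0.0377 by DESeq2 and 0.0402 and 0.0405 by voom. Of all genes, DESeq2 called 10.6% lower in tumors and voom 7.31%. Without recurrent DMAG+STV 2, the edgeR fold of Snai2 was -2.68, with recurrent DMAG+STV 1 as the only tumor of its group. The fold of S100a4 depended on gland 1: without that gland it was 0.70, in the opposite direction, and that of Fn1 was 0.61. With 1 library left out at a time, the folds of Zeb2 and Prrx1 also shrank, to as little as -0.26 and -0.42. Zeb2 was at 78.7 CPM in gland 1 and 33.4 CPM in gland 2, and Prrx1 at 40.1 and 17.2 CPM.

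**Figure D2:**
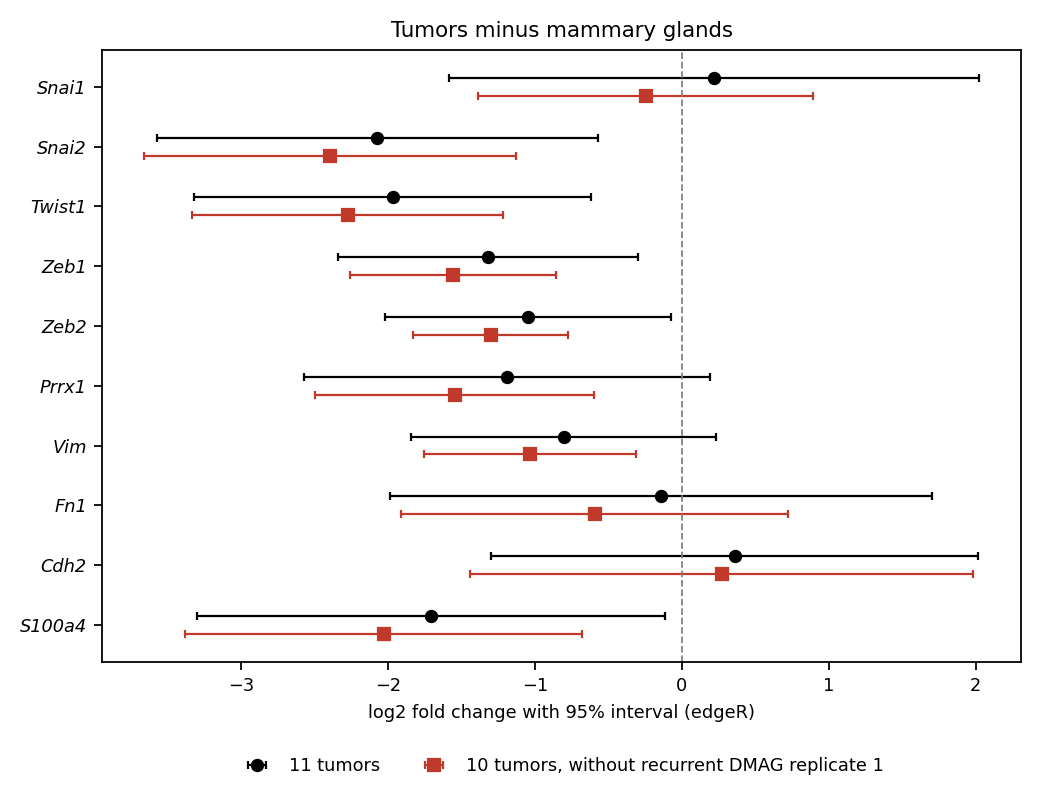
Log2 fold change of tumors over mammary glands for each gene, with 95% intervals from edgeR, for all 11 tumors (black) and for the 10 tumors other than recurrent DMAG replicate 1 (red). The red intervals of Snai2, Twist1, Zeb1, Zeb2, Prrx1, Vim and S100a4 lie below 0, and those of Snai1, Fn1 and Cdh2 include it.

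Marker lists of cells that normally express these genes are given beside this result, to be read against the 8.81% of all genes called lower in tumors. A fibroblast list of 10 genes summed to 2692 and 2385 CPM in the glands and to 249 to 1864 CPM in the tumors other than recurrent DMAG 1, where it reached 5760 CPM. An endothelial list of 8 genes summed to 303 and 280 CPM in the glands, 301 CPM in recurrent DMAG 1 and 75.0 to 163 CPM in the other tumors. Of the fibroblast list, 1 of 10 genes was called lower in tumors (Pdgfra, a fibroblast receptor, -1.87, adjusted p = 0.0121), as were 2 of 8 endothelial genes (Cldn5, -2.14, and Tek, -1.78). Of 9 macrophage genes, 0 were called by edgeR and 0 had an unadjusted p under 0.05, and that list summed to 627 and 349.6 CPM in the glands and 241 to 807 CPM in the tumors. All 10 fibroblast and all 8 endothelial folds were below 0, and no gene of these lists was at 0 in any library but for 1 fibroblast gene in primary STV 3. Of 8 genes of myoepithelium, the basal layer that expresses Snai2, 5 were called lower, led by Cnn1 (-4.59) and Myh11 (-4.79), and the list summed to 336 and 973 CPM in the glands and 22.8 to 272 CPM in the tumors. The part of these cell types in the result was not tested.

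The next comparisons asked whether tumors that had grown back differed from primary tumors, within mice without and with STV. The recurrent tumors had regrown while 17-DMAG was still given, so recurrence and exposure to the drug cannot be told apart. Recurrent DMAG against primary untreated tumors gave 0 of 10 genes called by edgeR (0.0% of 16870 genes), by DESeq2 or by limma voom. All 10 fitted folds were above 0, against 49.4% of all genes, with a median of 1.06 against -0.01 over all genes. With edgeR, 2 genes had an unadjusted p under 0.05, both higher (4.79% of all genes). The count was 3 with DESeq2 and 0 with voom, where 2108 of 20373 and 1581 of 16870 genes reached that p in either direction. The edgeR pair was Snai1 (2.23, 95% interval 0.16 to 4.29) and Twist1 (1.89, 0.11 to 3.67), both with an adjusted p of 0.509. The groups overlapped for all 10, where 7.65% of genes were higher and 7.45% lower in every recurrent DMAG tumor. The folds turned on recurrent DMAG 1: without it, those of Fn1 (-0.40), Prrx1 (-0.28), S100a4 (-0.27), Snai2 (-0.89), Vim (-0.016), Zeb1 (-0.75) and Zeb2 (-0.12) were below 0, while Snai1 (0.39), Twist1 (0.68) and Cdh2 (1.43) stayed above.

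Recurrent DMAG+STV tumors were then compared with primary STV tumors. These groups share no library with the previous comparison, but edgeR estimated the spread from all tumors together. Its p-values here therefore also depend on recurrent DMAG 1, which is in neither group. The comparison also gave 0 called genes (0.0% of 16870) with edgeR and 0 of the 10 with DESeq2 and voom. Unadjusted p under 0.05 was reached by 1, 2 and 0 of the 10, respectively, the edgeR gene being higher (5.42% of all genes). In either direction, 1696 of 16870 genes reached it with edgeR, 2228 of 20373 with DESeq2 and 1575 of 16870 with voom. Without recurrent DMAG 1, edgeR had 6 of the 10 at that p, against 2788 of 16722 genes in either direction. It then called 18 genes, 0 of them among the 10. With only the compared groups fitted, 4 of the 10 reached that p, against 2341 of 16224 genes. With all tumors in the fit, all 10 folds were above 0 (51.8% of all genes), with a median of 1.22 against 0.01. Values did not overlap for 7 genes, all higher in the recurrent tumors: Snai1, Twist1, Zeb2, Prrx1, Vim, Fn1 and S100a4. With 2 against 3 tumors, 17.4% of all genes were higher in this way. The largest folds were 2.24 (0.04 to 4.43, adjusted p = 0.490) for Snai2 and 1.95 (-0.25 to 4.15, adjusted p = 0.523) for Snai1. Those of Prrx1, Fn1, S100a4, Vim and Twist1 ran from 1.37 to 1.11. Zeb2, with 0.80, had the narrowest interval (-0.38 to 1.99). The fold of Snai2 was -0.22 without recurrent DMAG+STV 2, and those of Cdh2 (-1.42) and Zeb1 (-0.25) were then also below 0. The other 7 stayed between 0.60 and 1.21 with recurrent DMAG+STV 1 as the only recurrent tumor of this arm, whose spread was then taken from the other groups. The marker sums of fibroblasts, of macrophages and of pericytes with vascular smooth muscle were separate in the same way, and that of endothelium was not. The pericyte and vascular smooth muscle list had 475 and 642 CPM in the recurrent DMAG+STV tumors, against 303 to 410 CPM in the primary STV tumors. The fibroblast list reached 1419 and 1864 CPM in the recurrent DMAG+STV tumors against 249 to 669 CPM in the primary STV tumors, and a macrophage list of 9 genes 515 and 486 CPM against 241 to 292 CPM, while the endothelial list had 97.4 and 163 CPM against 75.3 to 118 CPM. Recurrent DMAG+STV 2 also held 2017 CPM of a skeletal muscle list, against 9.79 to 226 CPM in the primary STV tumors. The part of these cells in the higher values was not tested.

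**Figure D3:**
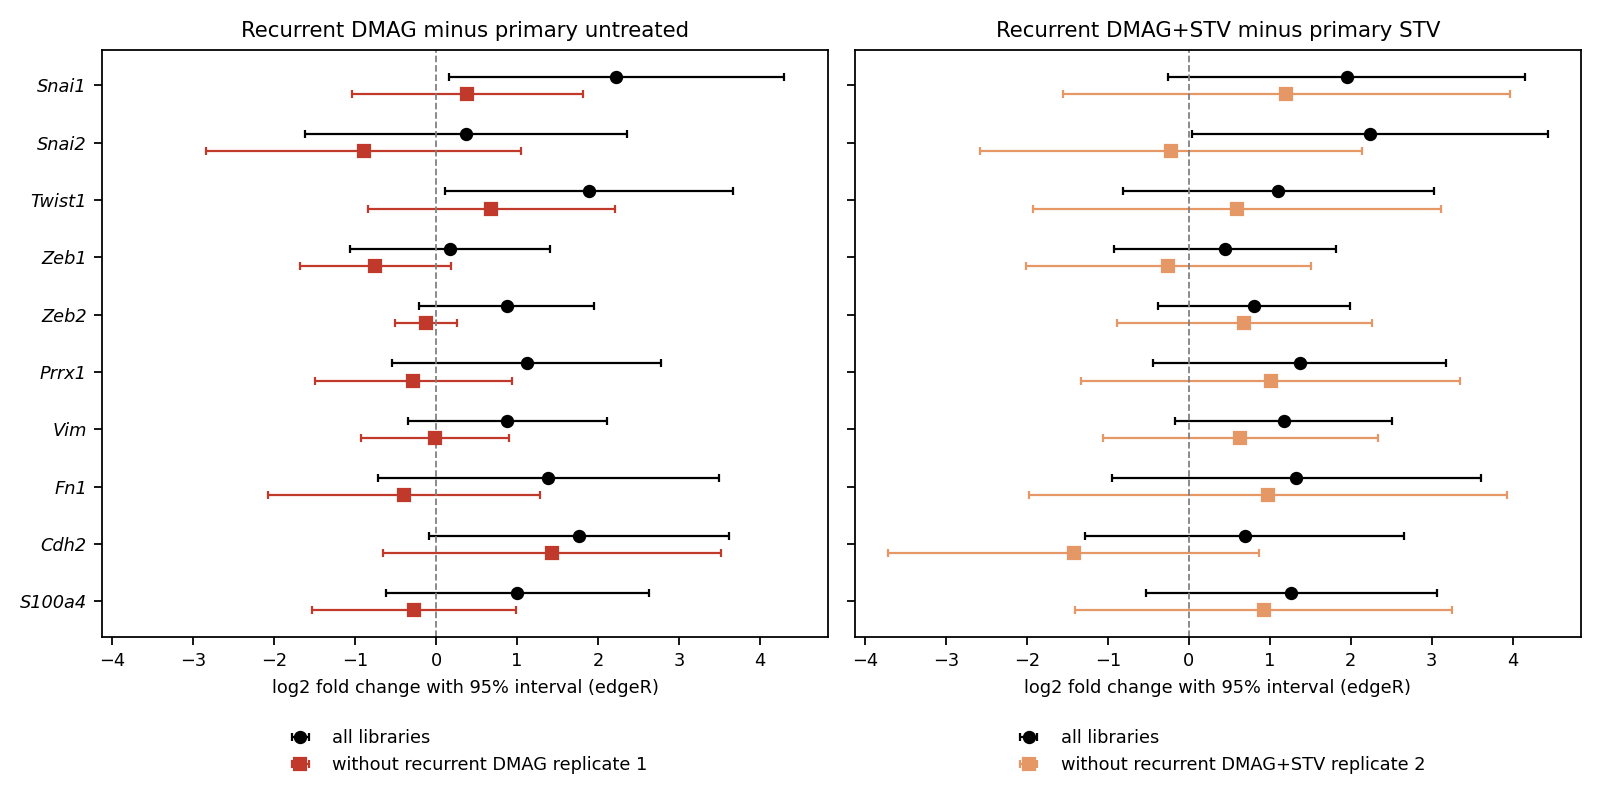
Log2 fold change of recurrent over primary tumors with 95% intervals from edgeR, without STV (left) and with STV (right), for all libraries (black) and without the recurrent tumor with the highest values of that arm. All 10 black points are above 0 in both panels, and 7 of 10 (left) and 3 of 10 (right) colored points are below it.

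Averaged over both arms, recurrent minus primary, the edgeR test again called 0 of 10 genes (0.0% of 16870), and DESeq2 called 1, Snai1 (2.10, adjusted p = 0.0425), where it called 1.29% of genes higher. At an unadjusted p under 0.05, edgeR gave 5 of the 10, all higher (7.61% of all genes), DESeq2 9 and voom 1. In either direction, 2837 of 20373 genes reached that p with DESeq2 and 2019 of 16870 with voom. The edgeR count was 1 without primary untreated 3, 2 without recurrent DMAG 1, primary untreated 2 or primary STV 2, 3 without primary STV 1 or 3, and 8 without recurrent DMAG 2. Over all genes in either direction, edgeR had 1478 of 16804 at that p without primary untreated 3. It had 1808 of 16722 without recurrent DMAG 1 and 2688 of 16840 without recurrent DMAG 2. The 5 were Snai1 (2.09 ± 0.67, adjusted p = 0.313), Twist1 (1.50 ± 0.58), Vim (1.03 ± 0.40), Zeb2 (0.84 ± 0.36) and Prrx1 (1.24 ± 0.55), with adjusted p between 0.313 and 0.363. Snai1 was at 1.18 to 11.3 CPM in the 5 recurrent tumors and at 0.441 to 1.55 CPM in the 6 primary tumors. Without recurrent DMAG 1 the folds of Twist1, Vim, Zeb2 and Prrx1 were 0.89, 0.57, 0.34 and 0.54. That of Snai1 was 1.16 (adjusted p = 0.410), and without recurrent DMAG+STV 2 it was 1.73 (adjusted p = 0.670). Zeb1 had a fold of 0.31 (-0.61 to 1.24), which turned to -0.16 and -0.03 without those tumors. For all 10 genes the 5 recurrent and 6 primary tumors overlapped, where 0.652% of genes were higher and 0.688% lower in every recurrent tumor. All 10 folds were above 0 (50.3% of all genes).

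STV itself was compared with none in primary tumors. There, edgeR, DESeq2 and voom called 0 of the 10 genes (0.0% of 16870 for edgeR), and 0, 1 and 0 had an unadjusted p under 0.05, which 1.32% of all genes reached higher and 2.44% lower with edgeR. With DESeq2, 893 of 20373 genes reached that p in either direction. Cdh2 had a fold of 1.76 (95% interval -0.09 to 3.61) and was higher in every STV tumor, as were 5.0% of all genes, with 5.83% lower in every STV tumor. The others ran from -0.90 (S100a4, -2.55 to 0.75) to 0.02 (Twist1, -1.74 to 1.79), and 8 of 10 folds were below 0 (median -0.46, against -0.03 over all genes), where 44.9% of all genes were above it. This comparison shares its libraries with those of recurrence.

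In recurrent tumors, STV against none also gave 0 calls with each of the 3 tools and 0 of the 10 at an unadjusted p under 0.05 (3.46% of all genes were higher and 4.38% lower at that p), with all groups overlapping (10.9% of genes were higher and 10.5% lower in both recurrent DMAG+STV tumors). Snai2 had a fold of 1.50 (-0.67 to 3.66) and Fn1 -0.95 (-3.33 to 1.42). Directions rested on individual tumors: without recurrent DMAG 1 all 10 folds were above 0 (Fn1 0.84), and without recurrent DMAG+STV 2 all 10 were below 0 (Snai2 -0.96). The difference between the recurrence effects of the arms, tested as an interaction, gave 0 of 10 calls (0.0% of 16870 genes) and 0 at an unadjusted p under 0.05 with edgeR, DESeq2 and voom, where edgeR had 3.83% of all genes at that p above 0 and 4.01% below. Of the 10 values, 5 were above 0 (52.5% of all genes). It was 1.86 (-1.09 to 4.82) for Snai2 and -1.07 (-3.78 to 1.64) for Cdh2. These intervals span several log2 units, so differences of that size were not detectable with 2 or 3 tumors per group.

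With all 11 tumors, the levels of most of the 10 genes followed those of stromal markers, and without recurrent DMAG 1 those of fewer did. Each gene was compared with the summed CPM of 4 lists over the 11 tumors, 40 relations in all, with two-sided permutation tests and Benjamini-Hochberg adjustment over the 40. On log2 values, Pearson's r passed an adjusted p of 0.05 for 9 of 10 genes with the fibroblast list, 9 with the endothelial list, 7 with the macrophage list and 1 with a list of 16 epithelial identity genes, and Spearman's rho for 6, 4, 4 and 0. With the mean of log2 CPM over a list in place of its summed CPM, these counts were 9, 9, 9 and 1 for r and 5, 8, 6 and 0 for rho. Recurrent DMAG 1 was the highest tumor for the fibroblast (5760 CPM), endothelial (301 CPM) and macrophage (807 CPM) lists. Without it, r passed for 3, 2, 1 and 1 of the 10 genes. The 1 gene passing with the epithelial list was Snai2 with all tumors (r = -0.866, adjusted p = 0.0102). Its rho was -0.400 (adjusted p = 0.274), and its r was -0.193 without recurrent DMAG 1 and recurrent DMAG+STV 2. Without recurrent DMAG 1 the gene passing was Zeb2 (r = -0.830, adjusted p = 0.0332), with rho = -0.564 (adjusted p = 0.224). That r was -0.167 when both recurrent DMAG+STV tumors were left out too, so both relations rested on a few tumors. The share of all genes that would pass was not computed, so these counts have no background beside them. Recurrent DMAG 1 was the highest tumor for 24.6% of all genes and the lowest for 24.6%.

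The closest relations held without that tumor. Fn1 and the fibroblast list had r = 0.963 (permutation p = 2e-05, adjusted p = 0.000200) and rho = 0.955 (p = 2e-05, adjusted p = 0.000800), with r = 0.907 without the 2 tumors farthest from the median of the list and 0.925 without recurrent DMAG 1. Prrx1 and the fibroblast list had r = 0.972 (permutation p = 1e-05, the smallest that can be given, adjusted p = 0.000133) and rho = 0.927 (p = 0.000170, adjusted p = 0.00170), with r = 0.961 without the 2 farthest tumors and 0.939 without recurrent DMAG 1. Zeb1 and the endothelial list had r = 0.981 (permutation p = 1e-05, adjusted p = 0.000133) and rho = 0.945 (p = 6e-05, adjusted p = 0.00120), with r = 0.961 and 0.973 in the same 2 checks. Zeb2 followed the macrophage list with r = 0.953 (permutation p = 0.000210, adjusted p = 0.00168) and rho = 0.864 (p = 0.00111, adjusted p = 0.00740), with r = 0.895 and 0.906. Without recurrent DMAG 1 and both recurrent DMAG+STV tumors, that r was 0.542. Zeb2 followed the fibroblast list as well, with r = 0.935 (permutation p = 1e-05, adjusted p = 0.000133) and rho = 0.927 (p = 0.000150, adjusted p = 0.00170), and r = 0.923 and 0.890.

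With the fibroblast list, the r of Snai1, Snai2, Twist1, Zeb1, Vim and S100a4 passed with recurrent DMAG 1 and did not pass without it. The r of Snai1 with the fibroblast list was 0.852 (permutation p = 0.00150, adjusted p = 0.00462) and its rho 0.645 (p = 0.0374, adjusted p = 0.0680), with r = 0.809 without the 2 farthest tumors. Without recurrent DMAG 1, r was 0.666 and had an adjusted p of 0.0708, so the relation rested in part on that tumor. With the macrophage list Snai1 had r = 0.887 (permutation p = 0.00141, adjusted p = 0.00462) and rho = 0.645 (p = 0.0364, adjusted p = 0.0680), with r = 0.765 without the 2 farthest tumors and 0.726 (adjusted p = 0.0667) without recurrent DMAG 1. Recurrent DMAG 2 and primary STV 3 had the lowest fibroblast sums, 343 and 249 CPM, with Snai1 at 1.38 and 1.37 CPM, near the median of all tumors. Cdh2 passed with none of the 4 lists, with r from 0.259 to 0.428 for the 3 stromal lists and -0.554 for the epithelial list.

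**Figure D4:**
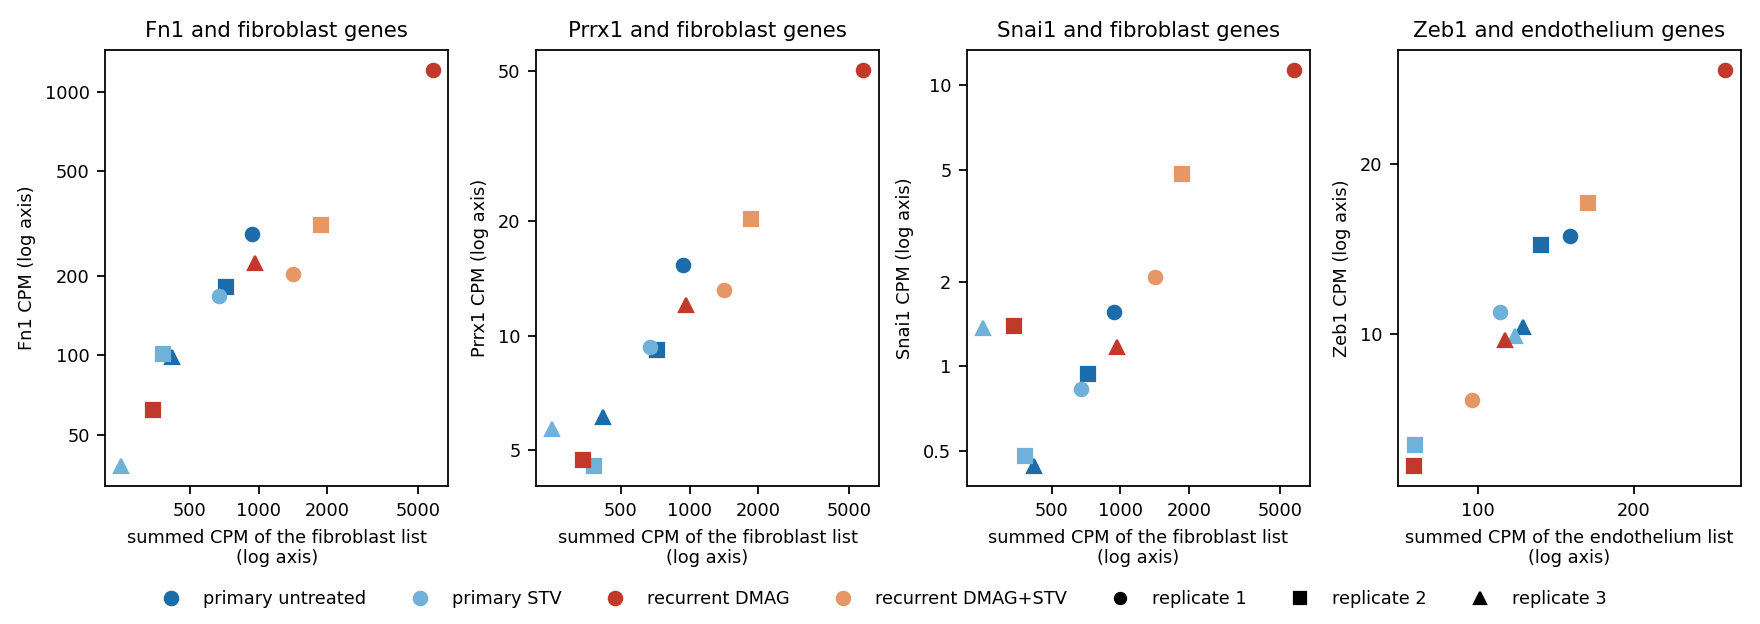
CPM of Fn1, Prrx1 and Snai1 against the summed CPM of the fibroblast list, and of Zeb1 against that of the endothelial list, in the 11 tumors (both axes log), colored by group with a symbol per replicate number. Recurrent DMAG replicate 1 is the point at the upper right of each panel, and the other 10 tumors lie along the same trend for Fn1, Prrx1 and Zeb1, with more scatter for Snai1.

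The epithelial side of EMT was read from 16 genes of epithelial identity. Cdh1, which was named here outside the rule for naming genes because it is the classic target of these repressors, was at 285 and 189 CPM in the glands, 331, 329 and 307 CPM in primary untreated, 331, 290.4 and 411 CPM in primary STV, 359.7, 438 and 391 CPM in recurrent DMAG, and 447 and 345 CPM in recurrent DMAG+STV tumors. Recurrent DMAG 1, with the highest Snai1, Twist1, Zeb1 and Zeb2 of all tumors, was below 4 and above 6 of the other tumors for Cdh1, and no tumor was below either gland. Recurrent minus primary, Cdh1 had a fold of 0.24 (-0.01 to 0.50, adjusted p = 0.380). Of the 16 genes, 0 were called by edgeR in either direction in that comparison, 3 were higher and 1 lower at an unadjusted p under 0.05, and 7 folds were above 0, with a median of -0.03 against 0.00 over all genes. The smallest p values were those of Epcam, an epithelial adhesion protein (-0.59, adjusted p = 0.287), and Elf3, an epithelial ETS factor (0.85, adjusted p = 0.305). Epcam was lowest in recurrent DMAG+STV 2, at 402 CPM, against 743 to 1236 CPM in the other tumors. The sum of the 16 genes was also lowest in recurrent DMAG+STV 2, at 1763 CPM. It was next lowest in recurrent DMAG 1, at 2315 CPM, against 2421 to 3174 CPM in the remaining tumors. Against the glands, 1 of the 16 was called higher in tumors, the vesicle transport gene Rab25 (0.63, adjusted p = 0.0254).

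Of 11 other EMT factors, 10 passed the filter on low counts. Against the glands 2 were called, both lower in tumors (8.81% of all genes): Twist2 (-2.61, adjusted p = 0.0377) and Prrx2 (-3.05, adjusted p = 0.0453), the paralogs of Twist1 and Prrx1. In recurrent against primary tumors edgeR called 0, 1 had an unadjusted p under 0.05, and 8 of 10 folds were above 0, with a median of 0.27. That gene was Tcf3, an E-protein that pairs with TWIST factors (0.28, adjusted p = 0.333).

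Of 20 mesenchymal effectors, which include matrix proteins, proteases and integrins downstream of EMT, 2 were called against the glands, both lower in tumors and a share close to the 8.81% of all genes: the receptor kinase Axl (-1.13, adjusted p = 0.0328) and the gelatinase Mmp9 (-2.84, adjusted p = 0.0453). In recurrent against primary tumors, 0 of the 20 were called by edgeR, 13 had an unadjusted p under 0.05, all higher (7.61% of all genes), and 19 of 20 folds were above 0, with a median of 1.37. The smallest p values were those of the matrix protein Tgfbi (1.37, adjusted p = 0.287) and Mmp9 (2.99, adjusted p = 0.287). Tgfbi was at 13.2 to 50.8 CPM in the 5 recurrent tumors and 7.80 to 12.98 CPM in the 6 primary tumors. Every recurrent tumor was thus above every primary tumor, as for 0.652% of all genes, the nearest pair being 13.20 and 12.98 CPM. Tgfbi was picked from the 20 by its p, and how many of the others were separate was not counted. The fibroblast list had 10 of 10 folds above 0 in the same comparison (median 1.32) and the macrophage list 9 of 9 (median 0.72), and their part in the higher effector values was not tested.

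Genes whose pattern over the 11 tumors was most like that of each member were sought by Spearman's rho among 13012 genes, and the 2 highest are given as a description. Recurrent DMAG 1 is extreme for many genes, which all such coefficients share. Closest to Snai1 were Sh3bp1 (rho = 0.973) and Ppp1r18 (0.964), and closest to Snai2 were D1Ertd622e (0.973) and the Notch ligand gene Jag2 (0.964). Twist1 was followed by Thbs2, which encodes the matrix protein thrombospondin 2 (0.982), and Adgra3 (0.955). Zeb1 was followed by Fgd5 (0.991) and Arhgef15 (0.964), both genes of endothelial cells, and Zeb2 by Fli1, an ETS factor of blood and endothelial cells (0.982), and the gelatinase Mmp2 (0.973). Prrx1 was followed by Emp3 and Scarf2 (both 0.982), Vim by Dclk1 (0.973) and Map4 (0.964), and Fn1 by Scn7a and the matrix crosslinking enzyme Loxl1 (both 0.991). S100a4 was followed by the small proteoglycan Podn and the secreted protease Htra3 (both 0.973). Cdh2 was followed by Cdc42, a small GTPase of all cells (0.982), and Ube2n, a ubiquitin-conjugating enzyme (0.918).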

How the data were processed

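Total RNA was depleted of ribosomal RNA, made into stranded libraries and sequenced by the authors, who aligned reads with STAR to mm10 (GRCm38) and counted them per gene with featureCounts. The submitters' processing notes list Subread 1.6.2 and bcl2fastq 2.20. The deposited table holds raw counts for 24421 genes, 20812 of them with a count. Strand setting, pair handling and multi-mapping rules are not given in the sources used here. Of counts from 1 to 20, 73.7% were even, against 49.7% from 1000 to 5000.

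Groups followed the labels. No 2 libraries of a group agreed within sampling noise (chi-square per degree of freedom of at least 47.8). Genes were tested on counts with edgeR 4.0.16 (filterByExpr, TMM, robust quasi-likelihood F test, R 4.3.3), tumors against glands over 13 libraries and tumor groups over 11, with Benjamini-Hochberg adjustment over all genes tested and calls at an adjusted p of 0.05. With 3 counts as the least level called detected, the floor was 0.0587 to 0.107 CPM, which covers counting error only and is too low where both reads of a pair were counted. Alternatives were DESeq2 1.42.0, limma voom 3.58.1, DESeq2 size factors in edgeR, no filter on low counts, a replicate block, removal of milk, muscle and adipocyte genes, only the groups compared, untreated tumors alone against the glands, leaving out each library, the mean of log2 CPM over a list and, chosen after seeing the data, halved counts and marker relations without recurrent DMAG 1. Relations used log2(CPM + 0.5) for genes, log2 of summed CPM for lists and 100000 permutations (Python 3.11.15, scipy 1.17.1). The scripts were tested on simulated data.

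The 10 genes and 13 further lists (131 genes) were chosen with earlier results of these data known. All 10 are named. From each other list, up to 2 called genes per direction with the smallest p were named, or, where none was called, up to 2 examples, together with the 2 genes most like each of the 10 (mean log2 CPM of at least 1.0). Cdh1 was named in addition, after its values were seen.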

Additional observations from a re-analysis of the deposited data

How the results depend on the processing

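In tumors against glands, 1785 genes were called, and 3237 with DESeq2, 371 with a replicate block and 361 with primary untreated tumors alone. Of the 10 genes, 0 were called with edgeR, 2 with DESeq2 (15.7% of all genes) and 2 with voom (8.83%). Snai1 turned to -0.10 with voom and -0.76 against untreated tumors alone, Cdh2 to -1.14 against untreated tumors alone, and Fn1 to 0.16 with the block. Where edgeR called 0 genes, DESeq2 called 18 (STV in primary tumors), 66 (recurrent DMAG against primary untreated), 333 (recurrent DMAG+STV against primary STV), 268 (STV in recurrent tumors), 421 (both arms averaged, 1 of the 10 genes) and 187 (interaction), and a fit of the compared groups alone called 2 (recurrent DMAG+STV against primary STV). With the block, Snai1 had a fold of 0.10 for STV in primary tumors. With voom, Snai2 and Zeb1 had folds of -0.11 and -0.17 for recurrent DMAG against primary untreated. Replicate numbers gave no sign of pairing: 15 same-numbered pairs had r from -0.30 to 0.22, 2 of them over 0.1. Differently numbered pairs had r from -0.37 to 0.37. With 2 or 3 libraries per group, these values cannot exclude a shared mouse or batch. The block called 0 of the 10 genes in every comparison. Of the 40 marker relations, 26 passed and 7 did without recurrent DMAG 1.

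Leaving out 1 library at a time, calls in tumors against glands ran from 535 (without gland 2) to 4255 (without gland 1) for all genes and from 0 to 6 (without recurrent DMAG 1) for the 10. Folds ran from -0.25 to 0.36 (Snai1), -2.68 to -1.84 (Snai2), -2.28 to -1.45 (Twist1), -1.56 to -0.86 (Zeb1), -1.45 to -0.26 (Zeb2), -1.59 to -0.42 (Prrx1), -0.59 to 0.61 (Fn1), -0.16 to 0.71 (Cdh2) and -2.47 to 0.70 (S100a4). For STV in primary tumors they ran from -0.59 to 0.35 (Snai1) and -0.24 to 0.63 (Twist1). For recurrent DMAG against primary untreated, 0 to 1 genes were called, and folds ran from -0.89 to 0.86 (Snai2), -0.75 to 0.59 (Zeb1), -0.12 to 1.26 (Zeb2), -0.28 to 1.62 (Prrx1), -0.016 to 1.25 (Vim), -0.40 to 1.94 (Fn1) and -0.27 to 1.47 (S100a4). For recurrent DMAG+STV against primary STV, 0 to 100 genes were called, and folds ran from -0.22 to 3.08 (Snai2), -0.25 to 0.90 (Zeb1) and -1.42 to 1.50 (Cdh2). For STV in recurrent tumors, 0 to 141 genes were called, with -0.96 to 2.77 (Snai2) and -1.49 to 0.84 (Fn1). With both arms averaged, 0 to 6 genes were called, with -0.16 to 0.55 (Zeb1). For the interaction, 0 to 77 were called, with -0.61 to 3.12 (Snai2). The counts of 100, 141, 6 and 77 came without recurrent DMAG+STV 1. The cause of these changes was not tested. With 2 or 3 libraries per group the intervals are wide, which limits what could be detected, and levels of Twist1 rest on as few as 8 counts. Halved counts called 0 of the 10 genes in every comparison.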

Other observations

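Other cell types of the gland were also measured through fixed marker lists. In tumors against glands, edgeR called 7 of 7 tested T and B lymphocyte genes lower, among them Cd79a of the B-cell receptor, but that list was high in gland 1 (174 CPM) and not in gland 2 (5.92 CPM). Of 8 adipocyte genes 7 were called lower (441 and 606 CPM in the glands, 2.78 to 116 CPM in tumors), and of 8 milk protein genes 6, among them Wap and Glycam1. Of 8 luminal keratin and lineage genes 3 were called lower (among them Muc1 and Krt19), of 10 skeletal muscle genes 0, of 7 pericyte and vascular smooth muscle genes 0 and of 9 macrophage genes 0, with 0, 1 (higher) and 0 at an unadjusted p under 0.05.

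Between recurrent and primary tumors none of these genes was called by edgeR. The macrophage list had 8 of 9 genes at an unadjusted p under 0.05 and all 9 folds above 0 (median 0.72), against 7.61% of all genes at that p and higher. Myoepithelial genes had 8 of 8 folds above 0 (median 1.03), and those of pericytes and vascular smooth muscle 7 of 7 (median 0.47). Skeletal muscle genes, with 10 of 10 folds above 0, were high in single libraries of several groups: 1266 CPM in primary untreated 1, 562 CPM in recurrent DMAG 3, 2017 CPM in recurrent DMAG+STV 2 and 2213 CPM in gland 2, against 5.93 to 226 CPM in the other tumors.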
